A study of Mus musculus with 12 samples.

Results

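Gsc, Isl1 and Tbx18 encode transcription factors of embryonic patterning, and they are described here in single mouse morulae, the stage at which the embryo's cells compact, just before the blastocyst. They were chosen by their signals on these same arrays, which separated fertilised from cloned embryos, so the class differences of the 3 genes are a description and carry no test. Their probes were found by matching the transcript accession of each probe to RefSeq, which gave 1 probe for Gsc (A_51_P370717), 1 for Isl1 (A_52_P337246) and 2 for Tbx18 (A_51_P438711 and A_52_P279263). These are 4 of the 41174 probes on the array and 3 of the 19038 genes and cDNA features that passed a filter on dim signal. All 3 genes passed that filter through the fertilised embryos alone.

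Gsc (goosecoid) encodes a paired-like homeodomain repressor that marks the vertebrate organiser and the anterior primitive streak, where it lies downstream of Nodal and Activin signalling. Isl1 encodes a LIM homeodomain activator that works in complexes with the adaptor Ldb1 and is known from progenitors of the second heart field, motor neurons and pancreatic islet cells. Tbx18 encodes a T-box repressor that recruits Groucho corepressors of the Tle family and is known from the epicardium, the sinus node and the anterior part of each somite. All 3 are textbook genes of stages after implantation.

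The series holds 12 embryos, each on an array of its own, of the strain given as (C57BL/6 x DBA/2) F1. The siXist class (n = 4) and the siCont class (n = 4) were clones made with nuclei of Sertoli cells, the nurse cells of the testis. At 6 to 7 h after activation they had received an siRNA against Xist (siXist) or a control siRNA (siCont), and all 8 were male. Xist is the long non-coding RNA that silences an X chromosome, and its repression in clones is what the series was designed to test. The IVF class (n = 4) came from in vitro fertilisation and was not treated, with embryos 1 and 3 male and embryos 2 and 4 female. No class of clones without an injection and no class of injected IVF embryos was analysed here, so cloning and injection cannot be told apart in a comparison with IVF embryos. All embryos were cultured for 72 h.

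Levels are log2 processed signals minus the 75th percentile of the array, which lay between 507 and 1133 in arbitrary units, and 0 therefore means a probe as bright as that percentile. A probe counts as detected on an array when Agilent's software marked it well above background. Between 50.7% and 61.4% of the probes were so marked on an array. Each class lay on a slide and a scan session of its own, so the slide, the scan and the origin of the embryos cannot be told apart in the class differences below. Of 12 morula markers, 11 were tested and all 11 were detected on all IVF arrays, 10 on all siXist arrays and 9 on all siCont arrays. The exceptions were Sox2, a pluripotency factor detected on 1 siXist, 1 siCont and 4 IVF arrays, and Cdx2, a trophectoderm factor detected on 3 siCont arrays. The summed linear level of the morula markers ran from 443 to 724 in siXist clones, from 555 to 767 in siCont clones and from 685 to 856 in IVF embryos, and its part in the results was not tested. Sertoli cell markers (8 of 12 tested) summed to 0.956 to 4.67 in siXist clones, 1.34 to 5.37 in siCont clones and 1.99 to 4.26 in IVF embryos. Amh was detected on 0 arrays, Wt1 on 1 (siXist), and Inha on 1 (siXist). Cldn11, a tight junction gene, was detected on 4 siXist, 1 siCont and 0 IVF arrays, Fshr on 2, 2 and 1, and Sox9 on 2, 4 and 4. Clu was detected on all arrays and averaged -1.50 in siXist, -1.48 in siCont and -2.91 in IVF embryos (adjusted p 0.364 and 0.367). Sox9 went the other way, with means of -5.38, -2.31 and 0.12. Of the 8 tested Sertoli cell markers, 6 had a negative difference for siXist minus IVF and 3 for siCont minus IVF, and 0 were called. Cumulus cell markers (4 of 8 tested) summed to 3.40 to 7.17, 4.05 to 8.87 and 2.32 to 4.59 in the siXist, siCont and IVF classes. Lhcgr was detected on 0 arrays, Ptx3 on 0 siXist, 4 siCont and 1 IVF arrays (siCont minus IVF 3.02, adjusted p 0.115), Tnfaip6 on 2, 1 and 0, and Amhr2, Foxl2 and Cyp19a1 on all. Ptx3 passed the filter on dim signal through the siCont clones alone, so its p-value is no independent test. The part of these markers in the results was not tested. The Xist probe with the highest mean read 1.72, 1.36, 2.18 and 2.45 in siXist clones and 5.65, 4.74, 4.94 and 4.56 in siCont clones. In IVF embryos it read 5.17 and 5.24 in the females and -4.92 and -7.04 in the males. The 3 dimmer Xist probes disagreed on the order of the clone class means. A_52_P113537 averaged -5.17 in siXist and -2.27 in siCont clones. A_52_P362360 averaged -0.40 in siXist and -0.44 in siCont clones, and A_51_P145453 averaged 0.60 and -3.37, so the siXist mean was the higher on the last 2. These means include readings below the lowest signal well above background on their array, which have no order. They were siXist 3 on A_52_P113537 (-9.04), siCont 4 on A_52_P362360 (-7.60), and siCont 3 and 4 on A_51_P145453 (-7.72 and -8.12). On A_52_P362360 siCont clones 1 to 3 read 2.15, 1.60 and 2.09, and siXist clones 1 to 4 read -1.52, 2.03, -0.53 and -1.59.

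The bases just before the start of each gene are shown because the 3 members, on 3 chromosomes, differed between the classes in the same way. The 250 bases before each RefSeq start are printed 5′ to 3′ along the gene, from GRCm38.p6, and capitals mark CpG dinucleotides, the sites at which mammalian DNA is methylated. All 3 genes lie on the minus strand. Gsc is at chr12:104473237-104473486, Isl1 at chr13:116309689-116309938 and Tbx18 at chr9:87731261-87731510.
Gsc: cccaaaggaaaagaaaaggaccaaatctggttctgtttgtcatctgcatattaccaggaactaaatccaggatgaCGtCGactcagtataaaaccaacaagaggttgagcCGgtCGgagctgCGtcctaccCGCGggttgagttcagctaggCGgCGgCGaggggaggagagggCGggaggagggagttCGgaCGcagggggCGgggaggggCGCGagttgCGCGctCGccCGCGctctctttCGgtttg
Isl1: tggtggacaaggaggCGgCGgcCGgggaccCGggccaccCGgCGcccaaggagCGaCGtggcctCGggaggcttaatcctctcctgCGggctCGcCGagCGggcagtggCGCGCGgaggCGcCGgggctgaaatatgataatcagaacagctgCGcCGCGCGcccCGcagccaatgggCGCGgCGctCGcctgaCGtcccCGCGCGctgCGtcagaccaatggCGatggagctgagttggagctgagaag
Tbx18: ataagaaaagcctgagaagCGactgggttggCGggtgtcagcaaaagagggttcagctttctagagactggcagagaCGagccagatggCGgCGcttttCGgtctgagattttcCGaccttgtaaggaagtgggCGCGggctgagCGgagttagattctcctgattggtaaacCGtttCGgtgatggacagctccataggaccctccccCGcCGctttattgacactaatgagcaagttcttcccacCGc
The Gsc window held 22 CpG, the Isl1 window 33 and the Tbx18 window 15, against a median of 6 over 32851 RefSeq promoter windows of the same length. These counts stand at the 85.2, 96.0 and 72.7 percentiles of all windows, and the GC contents were 59.2%, 71.2% and 54.0% against a median of 52.4%. Neither methylation nor binding was measured in these embryos.

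Short motifs were searched on both strands of the same windows. The TATA box letters TATAAA occurred 1 time in the Gsc window and not in the others, and 12.37% of all windows hold them. The letters CCAAT occurred 2 times before Isl1 and 1 time before Tbx18 (33.85% of all windows), and GGGCGG occurred 2 times before Gsc (32.74%). TAATCC, the core bound by Gsc-type homeodomains, occurred 1 time before Isl1 (6.25% of all windows), and the T-box core GGTGTGA in none of the 3 (3.33%). No match overlapped another, and a match is only letters in a window, not a site shown to be used.

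Gsc was well above background on all 4 IVF arrays and on 4 of the 8 clone arrays. Its levels were -7.69, -8.42, -5.13 and -4.59 in siXist clones 1 to 4, -4.84, -4.20, -7.59 and -6.03 in siCont clones 1 to 4, and -0.97, 0.91, 1.01 and -0.18 in IVF embryos 1 to 4. Each clone class thus held 2 embryos with a faint signal (siXist 3 and 4, siCont 1 and 2) and 2 without detection, and every clone lay below every IVF embryo. The gap between the highest clone, siCont 2, and the lowest IVF embryo was 3.22 on the log2 scale. The class means were -6.46 ± 1.88 in siXist clones, -5.67 ± 1.49 in siCont clones and 0.19 ± 0.95 in IVF embryos (SD, n = 4 each). The processed signals themselves, averaged without logs and without the percentile, were 17.4, 22.0 and 963. Undetected values were then raised to the lowest signal well above background on their array. On that scale Gsc was at least 57.2-fold lower in siXist clones and at least 40.6-fold lower in siCont clones than in IVF embryos. Such bounds, here and below, allow only for undetected values, not for sampling error or the choice of background correction. With normexp background correction and quantile normalisation the log2 differences were smaller, -3.45 and -3.41. As measured, the differences were -6.65 and -5.86, each with an SE of 1.02 from the limma fit. The siXist and siCont classes overlapped, and siXist minus siCont was -0.79 with the same SE. An embryo is a mixture of cells, so fewer cells expressing a gene and less RNA of it per cell cannot be told apart here.

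Isl1 was detected in 1 clone of 8. The probe is printed 10 times on the array, and after outlier spots were left out its mean levels were -6.54, -6.64, -8.59 and -8.57 in siXist clones 1 to 4, -4.94, -8.38, -7.75 and -8.13 in siCont clones 1 to 4, and -0.40, -1.07, -1.27 and -1.06 in IVF embryos 1 to 4. The detected clone was siCont 1, which still lay 3.67 below the lowest IVF embryo on the log2 scale. Class means were -7.59 ± 1.15, -7.30 ± 1.59 and -0.95 ± 0.38 (SD, n = 4 each) in siXist, siCont and IVF embryos. Isl1 was at least 48.7-fold lower in siXist clones, where no array detected it, and at least 26.8-fold lower in siCont clones than in IVF embryos. The measured differences were -6.64 and -6.35 (SE 0.81). The classes of clones overlapped, with siXist minus siCont at -0.28 (SE 0.81).

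The repeat spots of the Isl1 probe show the noise between spots of an array. They share amplified RNA, labelling and hybridisation, so they leave out the error of those steps, which the spread between embryos includes. In IVF embryos the SD of the spots of an array lay between 0.0491 and 0.104, while the SD between the 4 embryos was 0.381, and 40 of 40 spots were well above background. In siCont clones the spot SD lay between 0.0716 and 0.205 and the SD between embryos was 1.59, with 9 of 37 spots detected, all 9 on the array of siCont 1. In siXist clones the spot SD lay between 0.225 and 0.489, the SD between embryos was 1.15, and 1 of 38 spots was detected. The signal of siCont 1 was thus shared by every usable spot of its array. The spread between clones is mostly of undetected values, whose order cannot be read. Gsc and Tbx18 have 1 spot a probe and allow no such check.

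**Figure D1:**
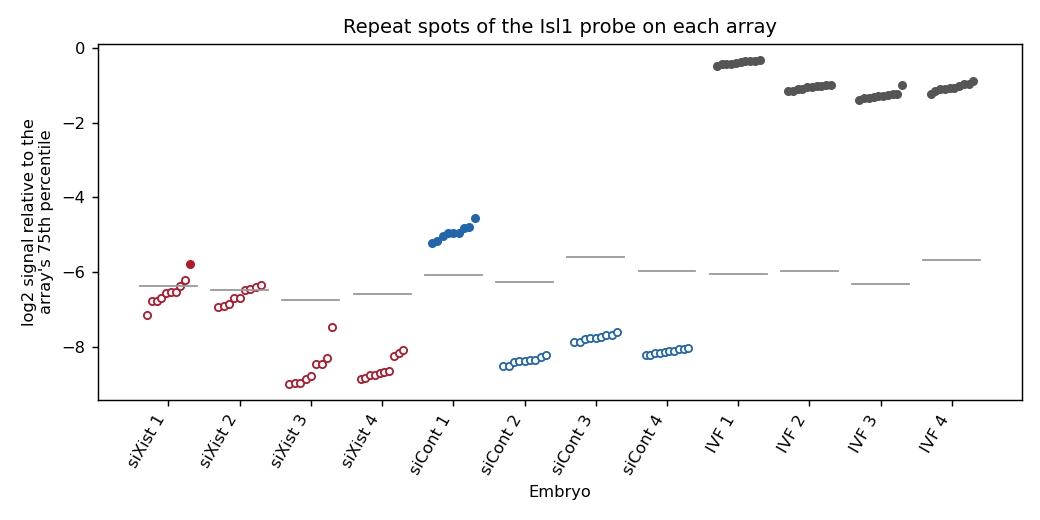
Log2 signal of each usable spot of the Isl1 probe relative to the array's 75th percentile (vertical axis) on each of the 12 arrays (horizontal axis), with filled points for spots well above background, open points for the others, and a grey line at the lowest signal well above background on that array. Spots of an array lie close together, those of the 4 IVF embryos lie above all clone spots, and siCont 1 is the clone whose 9 spots are all filled.

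Tbx18 was detected in 1 clone of 8, and both probes detected it in the same embryo, siXist 4. On the brighter probe, A_51_P438711, the levels were -8.52, -8.68, -9.01 and -2.80 in siXist clones 1 to 4, -7.82, -8.45, -7.85 and -8.26 in siCont clones 1 to 4, and 1.00, 0.78, 0.63 and -0.14 in IVF embryos 1 to 4. On A_52_P279263 they were -8.70, -8.81, -9.05 and -5.26 in siXist clones, -8.05, -8.60, -7.18 and -8.29 in siCont clones, and -0.93, -0.80, -0.68 and -1.98 in IVF embryos. Both probes placed IVF 4 lowest of the fertilised embryos and siXist 4 highest of the clones. The brighter probe left a gap of 2.66 between siXist 4 and IVF 4 on the log2 scale, and the dimmer probe a gap of 3.29. Class means on the brighter probe were -7.25 ± 2.97 in siXist clones, -8.09 ± 0.31 in siCont clones and 0.57 ± 0.50 in IVF embryos (SD, n = 4 each).

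Tbx18 was at least 72.2-fold lower in siXist clones and at least 93.1-fold lower in siCont clones than in IVF embryos on the brighter probe. On the dimmer probe the bounds were 34.9-fold for siXist and 29.4-fold for siCont clones. The bounds of the siCont class, undetected on all arrays, follow the floors of its arrays and give no order of the clone classes. The measured differences on the brighter probe were -7.82 for siXist minus IVF and -8.66 for siCont minus IVF (SE 1.19). siXist minus siCont was 0.84 (SE 1.19) on the brighter probe with all arrays and -0.64 without siXist 4, so its sign rests on that embryo, and it was 0.07 on the dimmer probe.

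**Figure D2:**
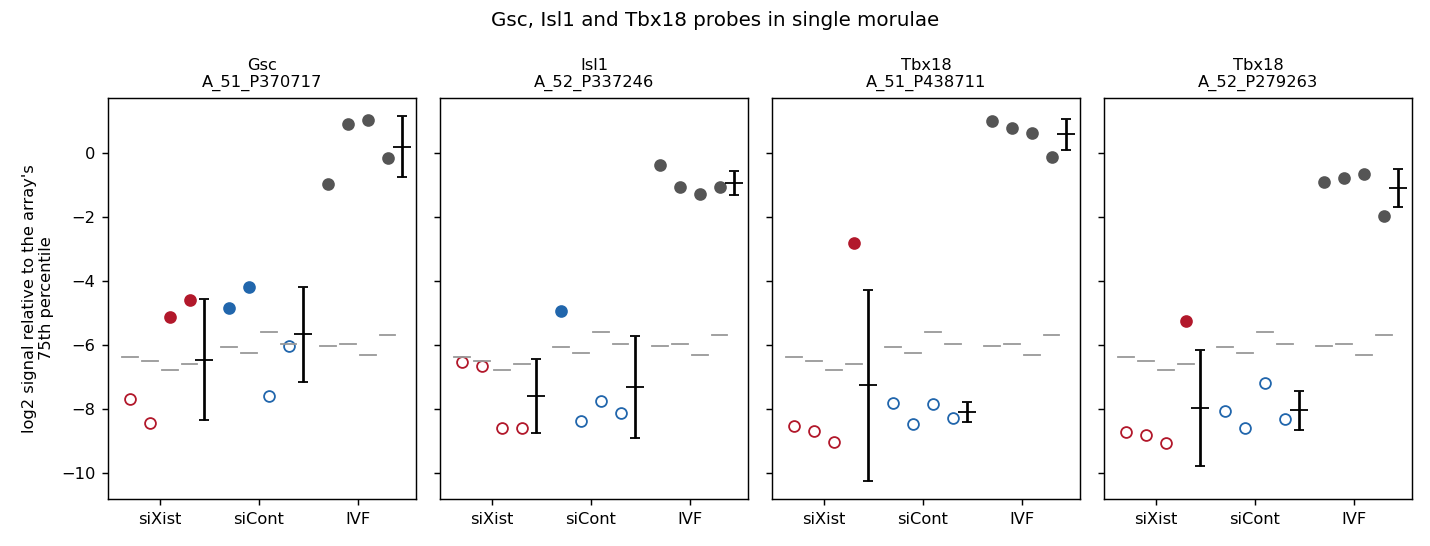
Log2 signal relative to the array's 75th percentile (vertical axis) for the 4 probes of Gsc, Isl1 and Tbx18 in siXist, siCont and IVF embryos, with filled points for arrays on which the probe was well above background, open points for the others, black bars for the class mean ± SD (n = 4 each), and grey ticks for the lowest signal well above background on each array. In every panel the 4 IVF embryos lie above all 8 clones, and the filled clone points are 4 for Gsc, 1 for Isl1 and the same 1 (siXist 4) on both Tbx18 probes.

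For all 3 genes the 8 clones lay below the 4 IVF embryos, a pattern that 2.33% of the 19038 features tested share. All 3 were detected on 4 IVF arrays and on at most 2 arrays of each clone class, as were 1.33% of features. The mean of the clones was at least 16-fold below that of the IVF embryos for all 3, against 0.825% of features. Since these arrays were what singled the 3 genes out, these shares place them and support nothing. In the fit over all features, limma with Benjamini-Hochberg adjustment at 0.05 called 110 features (0.578%) for siXist against IVF, 79 (0.415%) for siCont against IVF and 2 (0.0105%) for siXist against siCont. Without adjustment, p was below 0.05 for 2644 (13.9%), 2584 (13.6%) and 2645 (13.9%) of the features in those contrasts.

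The faint signals were spread over the clones in different combinations. None of the 3 genes was detected in 4 clones (siXist 1 and 2, siCont 3 and 4). Gsc alone was detected in siXist 3 and siCont 2. Gsc and Isl1 were detected in siCont 1, and Gsc and Tbx18 in siXist 4. No clone had all 3, while each of the 4 IVF embryos did. The share of all probes detected was 57.7%, 58.5%, 50.7% and 56.2% in the 4 clones with none of the genes (siXist 1, siXist 2, siCont 3, siCont 4), and 61.4%, 58.6%, 58.9% and 59.3% in siXist 3, siCont 2, siCont 1 and siXist 4. The part of array sensitivity in these faint signals was not tested.

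Female and male IVF embryos shared a slide, and their difference was not used to choose the genes. Gsc averaged 0.36 in females and 0.02 in males (n = 2 each), a difference of 0.34 ± 1.44 (SE) with a 95% interval of -2.87 to 3.56. Isl1 averaged -1.06 in females and -0.84 in males, a difference of -0.23 ± 1.14 with an interval of -2.77 to 2.31. Tbx18 averaged 0.32 in females and 0.81 in males, a difference of -0.49 ± 1.68 with an interval of -4.24 to 3.26. limma gave an adjusted p of 1.00 for each gene (unadjusted 0.816 for Gsc, 0.845 for Isl1 and 0.776 for Tbx18). Over all features this contrast called 3 (0.0158%), with 291 (1.53%) below an unadjusted p of 0.05. The intervals are wide and include both signs. Like the p-values, they rest on a variance pooled over all arrays, clones included, and not on the IVF embryos alone. The SD of the IVF embryos was 0.95 for Gsc, 0.38 for Isl1 and 0.50 for Tbx18 on its brighter probe. In the same order it was 1.88, 1.15 and 2.97 in siXist clones, and 1.49, 1.59 and 0.31 in siCont clones. The clone SDs include undetected values, which have no order. The male IVF embryos, 1 and 3, lay above all 8 male clones on every probe. This follows from the class separation by which the genes were chosen, so it is no test of sex.

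To see whether relatives of the 3 genes shared their pattern, 125 genes in 8 lists were examined. Of these, 120 had a probe and 81 passed the filter. The lists were chosen with earlier results of these data known. In limma's fit with adjustment over all features, which called 0.294% of features lower for siXist and 0.189% lower for siCont against IVF, 1 related gene was called for siXist against IVF (Eomes, lower), 1 for siCont against IVF (Ssbp4, lower), 0 for siXist against siCont and 0 for female against male IVF embryos. Without adjustment, p was below 0.05 for 21 of the 81 in siXist against IVF (4 higher, 17 lower), 22 in siCont against IVF (8 higher, 14 lower), 14 in siXist against siCont (3 higher, 11 lower) and 1 in female against male (lower). Over all features, 8.84%, 6.73%, 9.5% and 0.751% were lower at that level in these 4 contrasts. The median difference of the related genes was -0.43 for siXist minus IVF, -0.20 for siCont minus IVF and -0.44 for siXist minus siCont, against -0.23, -0.04 and -0.21 over all features. The detection pattern of the members, on 4 IVF arrays and at most 2 of each clone class, was met by 2 of the 81 (2.47%; Eomes and Dkk1), against 1.33% of all features.

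Upstream of Gsc, 16 of 20 Nodal and Activin pathway genes were tested, and limma called 0 of them in any class contrast (unadjusted, 1 higher and 2 lower for siXist against IVF, and 1 higher and 1 lower for siCont against IVF). The list's median difference was -0.07 for siXist minus IVF and 0.10 for siCont minus IVF. The 4 brightest members were clearly present in every class. Smad4, the common mediator of the pathway, averaged 4.81 ± 0.47 in siXist, 5.75 ± 0.42 in siCont and 5.60 ± 0.25 in IVF embryos (SD, n = 4 each). Pcsk6, a protease that processes Nodal precursors, averaged 5.32, 4.86 and 5.19 in the same classes. Smad2, the receptor-activated partner of Smad4, averaged 2.54, 3.17 and 3.95, and Acvr2a, a type II Activin receptor, averaged 0.91, 1.53 and 0.92. Lefty1, a secreted Nodal inhibitor named after its values were seen, ran opposite to Gsc. It was detected on 4 siXist and 4 siCont arrays and on 0 IVF arrays, with means of -4.18, -2.57 and -7.89. Its adjusted p in limma was 0.226 for siXist and 0.109 for siCont against IVF. Lefty1 passed the filter through the clones alone, so these p-values are no independent test.

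Among organiser and mesendoderm genes known to be expressed with Gsc, 10 of 20 were tested, of which 3 were lower at an unadjusted p under 0.05 for siXist and 3 for siCont against IVF. Eomes, a T-box factor of the primitive streak and of the trophoblast, was the gene called. Its levels were -6.17, -8.19, -8.59 and -5.67 in siXist clones, -6.75, -8.04, -7.32 and -3.54 in siCont clones and -0.45, -1.48, -1.13 and -1.69 in IVF embryos, with detection on 1, 1 and 4 arrays. As with the members, every clone lay below every IVF embryo. Like them, Eomes passed the filter through the IVF embryos alone, and its list was chosen with earlier results of these data known. Its p-values are therefore no independent test of a shared pattern. Eomes was at least 33.9-fold lower in siXist clones than in IVF embryos (difference -5.97, limma adjusted p = 0.0318) and at least 18.1-fold lower in siCont clones (difference -5.23, adjusted p = 0.0600). Over 22 alternatives the siXist call held in 14, with an adjusted p between 0.00404 and 0.121. The call was lost without any 1 of the IVF embryos 1 to 4 (0.121, 0.0791, 0.0896, 0.0792), without siXist 2 (0.0859), without siXist 3 (0.0955), in the authors' table (0.0753) and with the replicate block (0.0749).

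Gata6, a factor of the primitive endoderm and the brightest gene of that list, averaged 6.38 in siXist, 6.15 in siCont and 7.07 in IVF embryos. Every clone lay below every IVF embryo for Gata6 too, by much smaller differences (-0.69 for siXist and -0.92 for siCont minus IVF). Hhex, a homeobox gene of the anterior endoderm, averaged 3.96, 4.16 and 4.91, and the growth factor gene Fgf8 averaged 0.39, 1.34 and 0.17. None of these 3 passed the test (smallest adjusted p 0.265). Dkk1, a secreted Wnt inhibitor of the head organiser that was named after its values were seen, read -7.61, -7.78, 1.14 and -7.73 in siXist clones, -7.58, -8.06, -7.81 and -8.12 in siCont clones and 0.47, -2.48, -1.66 and -2.03 in IVF embryos. A single clone, siXist 3, thus stood at the level of the fertilised embryos on this probe and on the other Dkk1 probe (-0.52). The adjusted p was 0.342 for siXist and 0.173 for siCont against IVF. Dkk1 too passed the filter through the IVF embryos alone, so these p-values are no independent test.

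The paired-like homeobox family of Gsc had 17 of 30 listed genes tested and 0 called (unadjusted, 5 lower for siXist against IVF, and 2 higher and 2 lower for siCont against IVF). Its median was -0.89 for siXist minus IVF and -0.04 for siCont minus IVF. Dmbx1, a homeobox gene of the embryonic midbrain, averaged -3.35 ± 3.70 in siXist, -0.13 ± 1.02 in siCont and 2.39 ± 0.26 in IVF embryos (adjusted p 0.143 and 0.492 against IVF). Pitx1, a gene of the hindlimb and pituitary, averaged -0.41, -1.82 and 2.11 (adjusted p 0.296 and 0.133). Duxbl1, a double homeobox gene, averaged 0.70, 1.82 and 1.59, and Crxos averaged -1.41, -1.69 and -0.48 in the same classes.

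For Isl1, 7 of 11 LIM homeobox relatives were tested and 0 were called (unadjusted, 1 lower for siXist against IVF, and 1 higher and 2 lower for siCont against IVF). Isl2, the closest relative, averaged -0.69 ± 0.73 in siXist, -1.45 ± 4.31 in siCont and 2.08 ± 1.44 in IVF embryos (adjusted p 0.511 and 0.418), and it was detected in all but 1 clone. Lhx2, a factor of the eye and forebrain, averaged -1.60, -2.44 and 1.63. Lhx8, known from oocytes and forebrain neurons, averaged -5.37, -5.96 and -0.22, with detection on 3, 1 and 4 arrays (adjusted p 0.296 and 0.267). Lmx1b, a dorsal limb factor, averaged -4.89, -3.94 and -4.71. The IVF mean of Isl2, Lhx2 and Lhx8 was the highest of the 3 classes, and none of these genes passed the test (smallest adjusted p 0.267).

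Among genes whose products bind LIM domain factors, 9 of 11 were tested (unadjusted, 1 higher and 3 lower for siXist against IVF, and 1 higher and 2 lower for siCont against IVF). Ssbp4, whose product binds and stabilises Ldb complexes, was called for siCont against IVF. Its levels were -0.37, 0.12, -1.51 and -0.84 in siXist clones, -1.74, -2.40, -2.85 and -2.89 in siCont clones and 0.21, 1.64, 0.70 and 0.92 in IVF embryos, all well above background. It fell 10.1-fold in siCont clones against IVF embryos (difference -3.34, limma adjusted p = 0.0147), while siXist minus IVF was -1.52 (adjusted p 0.171) and siXist minus siCont 1.82 (adjusted p 0.261). The siCont call held in 20 of 22 alternatives (adjusted p between 0.0121 and 0.0756) and was lost without IVF 3 (0.0614) and with the replicate block (0.0756). Rlim, an X-linked ubiquitin ligase of LIM cofactors that also promotes Xist transcription, averaged 1.93 ± 1.48 in siXist, 3.07 ± 0.91 in siCont and 5.61 ± 0.20 in IVF embryos (adjusted p 0.0585 and 0.180). Ssbp3 averaged 0.44, 0.71 and 0.39, and Ssbp1, whose product binds DNA in mitochondria and is a relative by name, averaged 4.07, 4.25 and 4.83.

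Second heart field genes, known to be expressed with Isl1 in the later embryo, had 12 of 16 tested and 0 called (unadjusted, 1 higher and 2 lower for siXist against IVF, and 2 higher and 3 lower for siCont against IVF). The median was 0.24 for siXist minus IVF and 0.18 for siCont minus IVF. Hand1, a factor of the heart and of trophoblast giant cells, averaged 5.92 ± 1.04 in siCont and 4.51 ± 0.63 in IVF embryos. Its spots on the siXist slide were outliers on 3 of 4 arrays, which leaves 1 value there (1.96). Smarcd3, a chromatin remodelling subunit of the heart, averaged -0.04, -0.37 and -0.60 in siXist, siCont and IVF embryos. Foxc1, a forkhead factor, averaged -0.18, -3.98 and 0.63 (adjusted p 0.795 and 0.178).

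For Tbx18, 10 of 16 T-box relatives were tested, and Eomes, described above, was the 1 called (unadjusted, 3 lower for siXist and 3 lower for siCont against IVF). Tbx3, a repressor of the sinus node that is also active in pluripotent cells, averaged 4.92 ± 0.71 in siXist, 4.36 ± 1.27 in siCont and 4.70 ± 0.56 in IVF embryos. Mga, a T-box and bHLH repressor, averaged 0.63, 1.07 and 0.95, and Tbx21, known from T cells, averaged -0.06, 0.65 and -0.38. Tbx20, a heart factor, and Tbx15, a close relative of Tbx18, were chosen for mention after their values were seen. Tbx20 averaged -2.77 ± 1.68 in siXist and -3.45 ± 3.72 in siCont clones (SD, n = 4 each), and the differences from IVF embryos were -3.87 and -4.55 (adjusted p 0.320 and 0.268). On its brightest probe Tbx15 was detected on 0 siXist, 0 siCont and 3 IVF arrays and read -3.30, -1.44, -0.64 and -7.55 in IVF embryos 1 to 4. It stood there between -8.75 and -7.51 in all clones (adjusted p 0.0751 for siXist and 0.119 for siCont against IVF). Tbx15 passed the filter through the IVF embryos alone, so these p-values are no independent test. On that probe IVF 4, the fertilised embryo with the lowest Tbx18, was the one in which Tbx15 was not detected. The other Tbx15 probes differed from each other. A_51_P169659 went the same way as the brightest probe, with IVF 4 again the lowest fertilised embryo. It averaged -8.58, -7.97 and -3.81 in siXist, siCont and IVF embryos, with detection on 0, 0 and 3 arrays. A_52_P648635 averaged -7.28, -6.96 and -7.11, with detection on 0, 0 and 1 arrays, and showed no such class difference.

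Genes of the epicardium, sinus node and somite, which include the Tle corepressors of Tbx18, had 12 of 18 tested and 0 called (unadjusted, 1 higher for siXist and 2 higher for siCont against IVF, and 0 lower). Tle4 averaged 6.47, 7.24 and 6.90 in siXist, siCont and IVF embryos, and Tle1 averaged -0.20, -0.90 and 1.47. For Dll3, a Notch ligand of the segmenting mesoderm, siXist minus IVF was -0.42 and siCont minus IVF 0.36, which did not pass the test (adjusted p 0.845 and 0.878). The list's median was -0.32 for siXist minus IVF and 0.23 for siCont minus IVF.

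**Figure D3:**
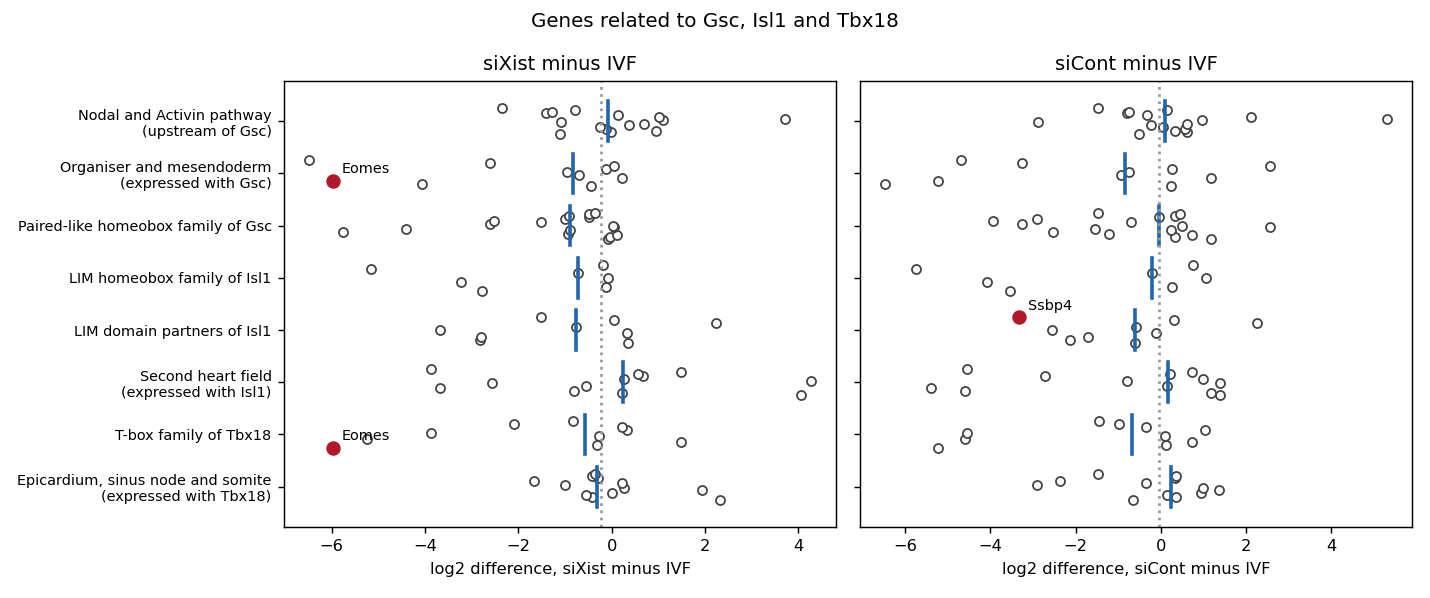
Log2 differences of the tested related genes (points) in 8 lists, siXist minus IVF on the left and siCont minus IVF on the right, with list medians as blue bars, the median of all 19038 features as a dotted line, and genes called by limma at an adjusted p under 0.05 as red points. Eomes, in 2 of the lists, is called for siXist and Ssbp4 for siCont, and the list medians lie within 1 log2 unit of the dotted line.

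The neighbours of the 3 genes on their chromosomes were examined next. Of the 30 genes that flank them in RefSeq order (5 on each side of each gene), 7 had a probe and 6 were tested, most of the others being non-coding or predicted. limma called 0 of the 6 in any of the 4 contrasts. Over all features it called 0.578% for siXist against IVF, 0.415% for siCont against IVF, 0.0105% for siXist against siCont and 0.0158% for female against male. With shares this low, 0 of 6 cannot set the neighbours apart from other features. Next to Gsc, Dicer1, the small RNA processing enzyme, averaged 0.62 ± 0.65 in siXist, 0.89 ± 0.65 in siCont and 1.13 ± 0.29 in IVF embryos (SD, n = 4 each). Serpina3m, a protease inhibitor gene, averaged -4.05, -3.60 and -1.99 (adjusted p 0.159 and 0.267 against IVF), and Syne3 averaged -6.06, -5.02 and -5.21. Clmn, also near Gsc, ran the other way in the siXist clones, with means of -1.15, -6.20 and -5.82 (siXist minus IVF 4.67, adjusted p 0.0901). It passed the filter through the siXist clones alone. Parp8, near Isl1, averaged 4.93, 5.30 and 5.27, and Cep162, near Tbx18, averaged 0.71, 0.92 and 0.52.

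Likeness across the 12 arrays was measured by Pearson's r, with undetected values raised to the floor of their array, against 12997 genes with a symbol. The arrays share 3 classes on 3 slides, and r is given as a description with no test. The members were chosen for their class separation on these arrays, and undetected clones stand at the same array floors. A high r and a high rank between members follow from this, so they support nothing. Between the members r was 0.931 for Gsc and Isl1, 0.935 for Gsc and Tbx18, and 0.927 for Isl1 and Tbx18. Among all genes, Tbx18 ranked 3 and Isl1 ranked 4 for Gsc, Gsc ranked 10 and Tbx18 ranked 15 for Isl1, and Gsc ranked 8 and Isl1 ranked 11 for Tbx18.

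For Gsc the 5 most alike genes were Gml2 (r 0.947), Xlr5c (0.940), Tkt (0.926), Zfp758 (0.919) and C8b (0.917). For Isl1 they were Xlr5c (0.987), Krt27 (0.981), C8b (0.962), Gml2 (0.961) and Crtac1 (0.951). For Tbx18 they were Epha7 (0.957), Crtac1 (0.952), Lap3 (0.952), Rac3 (0.943) and Xlr5c (0.943). Genes with r over 0.9 numbered 10, 26 and 22 for Gsc, Isl1 and Tbx18. Xlr5c, an X-linked gene of the Xlr family, was among the 5 for all 3 members, with means of -8.84 in siXist, -8.15 in siCont and -0.85 in IVF embryos and detection on 0, 0 and 4 arrays. Gml2 had means of -7.57, -7.21 and -1.09, again with detection on 0, 0 and 4 arrays. Xlr5c belongs to a multigene family, so its probe may also read close copies.

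The genes most like Tbx18 included some with a trace in the same clone. Likeness was measured over all arrays, that of this clone included, so a trace shared with Tbx18 itself raises r. The shared trace thus follows in part from the ranking and is a description, not an independent finding. Epha7, an ephrin receptor, was detected on 1 siXist array, 1 siCont array and 4 IVF arrays, and its siXist clone was siXist 4, the embryo with Tbx18. There Epha7 read -3.63, against a siXist class mean of -6.73. Tkt, an enzyme of the pentose phosphate pathway that was alike to Gsc, was detected on every array and differed by far less, with means of 3.40, 3.47 and 4.16 in siXist, siCont and IVF embryos.

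**Figure D4:**
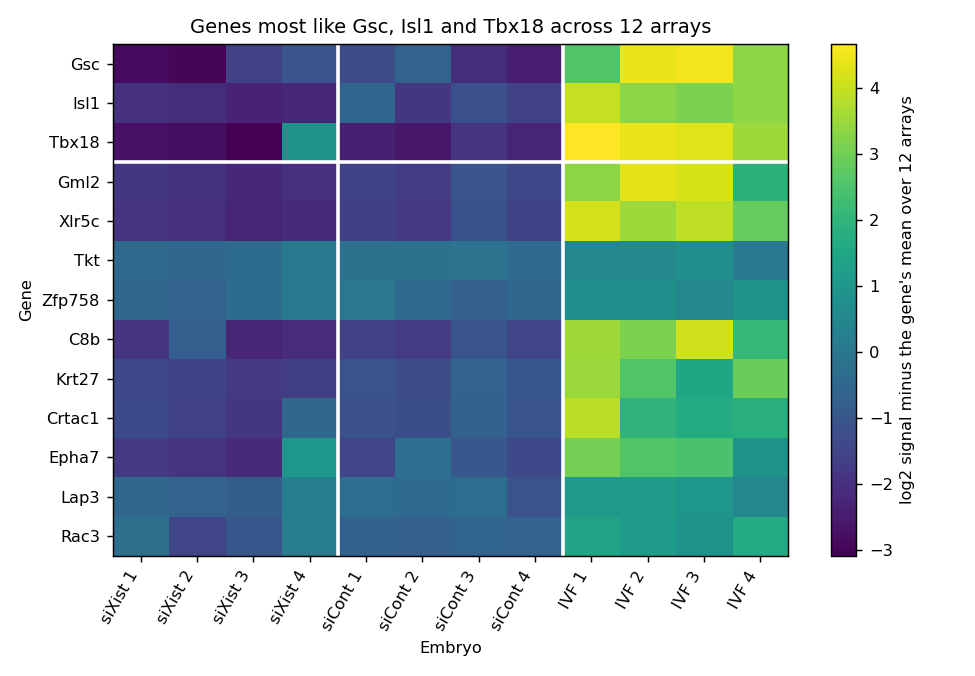
Heat map of log2 signal minus the gene's mean over 12 arrays, with undetected values raised to the array's floor, for Gsc, Isl1, Tbx18 (above the white line) and the genes most like them (rows), in siXist, siCont and IVF embryos (columns). The IVF columns are the brightest for most rows, siXist 4 is raised for Tbx18 and Epha7, and Tkt, Zfp758 and Lap3 differ little between columns.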

How the data were processed

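Expression was measured in 12 single mouse morulae on single-colour Agilent arrays. Scanner output gives spot intensity made by Agilent Feature Extraction 10.5.1.1 (grid build mm9), per the file headers, with the background already subtracted from the processed signal. Per the labels, RNA was amplified in 2 rounds, and its effect on faint transcripts was not tested. The authors also deposited a log2 table, which its values show to be centred on each probe's median over the 12 arrays, with a constant per array of unknown basis, and it served as an alternative.

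Values are log2 of the processed signal minus the array's 75th percentile, with outlier spots left out and spots of a probe averaged. No spot of a member was saturated. Probes well above background on at least 3 of 4 arrays of a class were kept (24840 of 41174), and the brightest kept probe stood for a gene (19038 features, 13539 with a symbol). RefSeq (GRCm38.p6) named 65.3% of probes and supplied the promoter windows. A mean for siXist, siCont, female IVF and male IVF was fitted to all 12 arrays in limma 3.58.1 under R 4.3.3 (8 residual degrees of freedom), two-sided, with Benjamini-Hochberg adjustment at 0.05. IVF is the equal mean of the sexes. Bounds raise undetected values to the array's lowest signal well above background and include no sampling error. The fit was tested on simulated data with the same normal spread for every feature and no detection floor. That test therefore says nothing about faint values.

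The members and lists were chosen with earlier results of these data known. Text names the members, called list genes plus, up to 4 a list, the brightest, the 5 genes most alike to each member, the 5 neighbours on each side and Xist, and any other gene was chosen after its values were seen. The design text calls the embryos of each siRNA class biological replicates. The 22 alternatives took values from the authors' table, from quantile normalisation, or from normexp (offset 50) followed by it. Others used no filter, a filter of at least 6 arrays, the floor under dim values, the mean of probes, only the groups compared, a block for the replicate number, robust eBayes with a trend, or left out each array.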

Additional observations from a re-analysis of the deposited data

Results flagged for a closer look

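Tbx18 in siXist clone 4 stood apart from the other 3 siXist clones, which were below background on both probes. On A_51_P438711 the level was -2.80, against -8.52, -8.68 and -9.01, and its gap filled 0.921 of the class's range, with a critical value of 0.829 for 4 samples. With undetected values raised to the floor of their array the ratio was 0.905. On A_52_P279263 the level was -5.26, against -8.70, -8.81 and -9.05, with a ratio of 0.907 as measured. With the floor it was 0.748, below the critical value, so that pass rests on readings below background. The probes read the same amplified RNA on the same array, so they are not independent embryos. Of 12 combinations of probe and class, 8 held undetected values, and 2 passed as measured and 1 with the floor, where chance passes about 1 in 20. The share of probes above background was 59.3% on that array, within the range of the others.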

How the results depend on the processing

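For Gsc, Isl1 and Tbx18, siXist minus IVF and siCont minus IVF kept their sign under every alternative that gave a value. The filter of at least 6 arrays removed Isl1 and Tbx18 and gave none for them. Normexp with quantile normalisation shrank the differences to -3.45 and -3.41 for Gsc, -2.79 and -2.79 for Isl1, and -3.85 and -4.31 for Tbx18 (siXist, then siCont, minus IVF). The floor under dim values gave -4.74 (Isl1) and -6.54 (Tbx18), the authors' table -9.76 (Tbx18) and the mean of probes -7.80 (Tbx18) for siCont minus IVF. Leaving out an array moved siXist minus IVF between -7.27 and -5.99 (Gsc), -6.98 and -6.30 (Isl1), and -9.30 and -7.23 (Tbx18), and siCont minus IVF between -6.36 and -5.22, -7.14 and -5.99, and -8.89 and -8.43. siXist minus siCont changed sign for all 3 genes under some alternative (to 0.35 for Gsc and 0.85 for Isl1 in the authors' table, and to -0.64 for Tbx18 without siXist 4), and female minus male IVF for Gsc (authors' table -0.36, replicate block -0.16, leave-one-out -0.65 to 1.34) and Isl1 (block 0.75, leave-one-out -0.67 to 0.21). The authors' table also moved the median of all features. It went from -0.21 to 0.92 for siXist minus siCont and from 0.03 to -0.67 for female minus male IVF. The cause of the sign changes was not tested.

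Features called for siCont against IVF (79, of which 43 higher) numbered 45 with at least 6 arrays (fewer genes tested), 12 with the replicate block and 33 to 106 leaving out an array. The higher calls were 12 of 101 in the authors' table, 32 of 76 under normexp and 29 of 79 with only the groups compared. For siXist against IVF (110, of which 54 higher) they numbered 38 in the authors' table, 51 with at least 6 arrays, 13 with the block and 34 to 127 leaving out an array, and 61 of 100 were higher under quantile normalisation. For siXist against siCont (2) they numbered 0 (normexp), 4 (quantile), 19 (authors' table), 12 (only the groups compared), 0 (block) and 8 to 56 (leaving out an array). For female against male IVF (3) they numbered 5 (normexp), 23 (no filter), 5 (floor), 0 (only the groups compared) and 3 to 7 (leaving out an array). The median of all features for siCont minus IVF was -0.04, and -1.13 in the authors' table.

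Related genes called for siCont against IVF (1) numbered 2 under normexp, the floor and only the groups compared, 3 in the authors' table, 0 with the block and 0 to 3 leaving out an array. For siXist against IVF (1) they numbered 2 under normexp and robust eBayes, 0 in the authors' table and with the block, and 0 or 1 leaving out an array. The counts for siXist against siCont and female against male stayed at 0. Embryos with the same replicate number did not deviate together (r from -0.15 to 0.06 over 12 pairs, and 1 of 12 arrays closest to its own number). The correlations give no sign of pairing, but they do not show how the numbers were assigned. Below about the floor of each array, log2 -6.76 to -5.60, levels have no order.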
